A study of Mus musculus with 42 samples.

Results

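The 10 genes described here belong to the Eph receptor and ephrin family: the EphA receptor genes Epha3, Epha4, Epha5 and Epha7, the EphB receptor genes Ephb1 and Ephb2, the ephrin-A genes Efna2 and Efna5, and the ephrin-B genes Efnb1 and Efnb2. Binding of Hox transcription factors and of their cofactors MEIS and PBX was examined at these loci by chromatin immunoprecipitation and sequencing (ChIP-seq) in mouse cells on the way to spinal motor neurons. A binding event was assigned to a gene when its position lay inside the gene or within 50 kb of either end. The 10 genes were taken by name from 21938 protein-coding genes, and all 10 held events. Their windows contained 3032 events of 21 event lists. Events within 100 bp of each other were merged into 871 sites, of 377386 sites in the whole series.

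Eph receptors are receptor tyrosine kinases, and ephrins are ligands that stay on the membrane of the cell that makes them. Ephrin-A proteins carry a lipid anchor and bind mainly EphA receptors, whereas ephrin-B proteins span the membrane and bind mainly EphB receptors. Contact between them usually repels a growth cone, and the ephrin can also signal back into its own cell. EphA4 on axons of the lateral part of the lateral motor column directs them into the dorsal limb, away from ephrin-A ligands in ventral mesenchyme, and EphB1 on medial axons answers to ephrin-B ligands of the dorsal limb. Hox factors assign motor neurons their segmental identity, and motor columns of different segments send axons along different paths.

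All cells came from the Ainv15 line of mouse embryonic stem cells, grown as embryoid bodies (EBs), and every line carried a tagged Hox transgene under doxycycline (Dox) control. In the patterned groups retinoic acid (RA) and smoothened agonist (SAG) were present from day 0, Dox was added on day 2, and cells were collected after 24 h (day 3) or 48 h (day 4). Full-length proteins mapped at day 3 were the 3 HOX9 paralogs HOXA9, HOXC9 and HOXD9, the central factors HOXC6 and HOXC8, and the more posterior HOXC10 and HOXC13. At day 4 the mapped proteins were HOXC10, HOXC9 and HOXC6. HOXC6 and HOXC9 were mapped as well in EBs that received Dox for 12 h and neither RA nor SAG. The 4 chimeras were mapped at day 3. HOXC13:C10.1 and HOXC13:C10.2 joined the N-terminus of HOXC13 to the homeodomain and C-terminus of HOXC10, HOXC10:C13.1 and HOXC10:C13.2 were the converse. In HOXC13:C10.2 and HOXC10:C13.2 the exchange took account of a conserved stretch upstream of the homeodomain. MEIS was mapped at day 3 in the V5-tagged lines iHoxc6.V5, iHoxc9.V5 and iHoxc10.V5, and PBX at day 4 in iFlag.Hoxc9 and iFlag.Hoxc10.

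Most HOX libraries were made with a Flag antibody in Flag-tagged lines. The HOXA9, HOXD9 and HOXC13 lists each pool a Flag-tagged and an HA-tagged line, and the day 3 HOXC10 list pools 2 libraries of a Flag-tagged line with 1 of iHoxc10.V5. In all groups the Hox protein was forced from a Dox-responsive transgene, and an EB can hold cells other than motor neurons. No expression data were used, so the identity of the cells was not checked against markers.

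The list headers gave 5.04 to 32.9 M reads per library, of which a fraction of 0.008 to 0.527 was assigned to binding events. The lists held 848 to 128388 events. Each HOX list combines libraries: 2 in 14 lists, 3 for HOXC10 at day 3 and 4 for HOXC10 at day 4. The 5 MEIS and PBX lists rest on 1 library each. No list gives a value per library, so no spread between samples could be attached to any value, and no test between groups was run. The lists also hold columns in which the authors compared pairs of conditions, and these were not used. Intervals given with shares (95%, Wilson) and with differences of shares (95%, Newcombe) cover the sampling of events only, and the events of one locus are not independent. Day 4 lists were called against a control library of 4.72 M reads, EB lists against 10.5 M and day 3 lists against 20.3 or 20.6 M.

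The sites that recurred in the most lists are shown first, because the comparisons below return to them. Each member with a site in 10 or more lists is represented by the site found in the most lists, as 101 bases around its centre on the plus strand of GRCm38 (mm10), taken from the RefSeq copy of that assembly. All 8 lie in introns. Capitals mark 5 searched motifs on either strand. TAAT is a core recognised by many homeodomains. TTTAT is preferred by posterior Hox proteins such as HOXC9 and HOXC10, whereas the authors report motifs with the variant TTTAC as distinct to HOXC13. TGATTTAT resembles a joint PBX and HOX site and contains the shorter posterior motif. The MEIS core is TGACAG.
Epha3, chr16:63556647-63556747: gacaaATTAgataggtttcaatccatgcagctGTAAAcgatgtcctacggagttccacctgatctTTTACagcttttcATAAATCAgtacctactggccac
Epha4, chr1:77495226-77495326: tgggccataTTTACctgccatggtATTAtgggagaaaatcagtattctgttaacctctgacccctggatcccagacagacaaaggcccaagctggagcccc
Epha5, chr5:84412812-84412912: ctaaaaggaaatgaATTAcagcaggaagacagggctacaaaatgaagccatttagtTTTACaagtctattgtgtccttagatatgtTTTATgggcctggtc
Epha7, chr4:28881766-28881866: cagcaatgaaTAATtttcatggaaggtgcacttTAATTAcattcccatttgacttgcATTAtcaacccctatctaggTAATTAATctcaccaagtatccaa
Ephb1, chr9:102240363-102240463: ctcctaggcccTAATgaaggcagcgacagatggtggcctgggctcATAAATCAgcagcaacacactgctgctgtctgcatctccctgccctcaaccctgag
Ephb2, chr4:136818478-136818578: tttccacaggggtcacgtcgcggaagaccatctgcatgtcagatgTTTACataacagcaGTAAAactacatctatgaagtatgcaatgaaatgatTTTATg
Efna5, chr17:62747831-62747931: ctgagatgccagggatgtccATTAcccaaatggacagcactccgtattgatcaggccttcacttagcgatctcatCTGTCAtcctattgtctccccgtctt
Efnb2, chr8:8654080-8654180: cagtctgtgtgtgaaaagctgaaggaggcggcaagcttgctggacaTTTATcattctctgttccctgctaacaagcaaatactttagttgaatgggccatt

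The sequences did not share one motif. The Efnb2 window held a single TTTAT, the Efna5 window an ATTA and a CTGTCA, and the Ephb1 and Epha3 windows each an ATAAATCA. The Epha7 window held TAAT or its reverse complement several times and no TTTAT. Over all 871 member sites TTTAT occurred within 50 bp at 59.5%, against 61.2% of the series' sites. TAAT occurred at 72.3% against 72.4%, TTTAC at 30.4% against 30.3%, TGATTTAT at 4.13% against 3.35%, and TGACAG at 9.07% against 8.37%. Such matches describe the letters at a site and do not show which protein bound there.

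Another 3 sites were among the 10 sites with the most lists, at 12.1 kb and 79.8 kb from the start of Epha4 and at 68.3 kb from the start of Epha7. Their sequences were chosen for printing after their values had been seen, because the results for Epha4 and Epha7 return to them.
Epha4, chr1:77502959-77503059: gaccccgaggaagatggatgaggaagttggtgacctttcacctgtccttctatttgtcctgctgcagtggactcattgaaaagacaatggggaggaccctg
Epha4, chr1:77435208-77435308: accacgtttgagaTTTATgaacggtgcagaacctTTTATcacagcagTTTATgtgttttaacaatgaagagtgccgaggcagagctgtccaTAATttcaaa
Epha7, chr4:28881365-28881465: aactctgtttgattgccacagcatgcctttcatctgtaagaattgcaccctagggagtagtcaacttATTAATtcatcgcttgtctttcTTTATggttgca

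The site at 79.8 kb in Epha4 held TTTAT in 3 copies, whereas the site at 12.1 kb held none of the motifs searched. The site at 68.3 kb in Epha7 held an overlapping pair of TAAT cores and 1 TTTAT.

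Most sites at the family were intronic, in windows drawn around the gene bodies, and 7 members span at least 100 kb. The intronic share of the series' sites was not counted. Of the 871 sites 670 (76.9%) lay in introns of the member, 4 in exons, 14 in untranslated regions, 90 upstream and 93 downstream. Within 1 kb of a transcription start lay 39 (4.48%), against 8.34% of all sites in the series. The nearest protein-coding start was that of the member for 794 sites (91.2%). The exceptions were concentrated at Ephb1, where this held for 62 of 105 sites, at Ephb2 with 24 of 37, at Efnb2 with 38 of 46 and at Efna2 with 2 of 15. The Efna2 window also holds the starts of 6 other protein-coding genes, the Ephb2 window 3 and the Efnb2 window 1, and the events there cannot be told apart by gene.

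The number of sites differed widely between members. Efna5 had 194, Epha3 170, Epha5 118, Epha4 114 and Ephb1 105. Epha7 had 67, Efnb2 46, Ephb2 37, Efna2 15 and Efnb1 5. Per 100 kb of window, Efna5 led with 51.4 sites and was followed by Epha4 with 46.0, Epha3 with 40.4 and Efnb2 with 32.0. Epha7 had 26.3, Epha5 25.5, Ephb1 19.7, Efna2 13.6, Ephb2 12.8 and Efnb1 4.43. Epha5 and Ephb1, with long windows, ranked lower by density than by total, and the short gene Efnb2 ranked higher. Of the 871 sites 350 (40.2%) were found in 1 list, against 45.8% of the series' sites. In 10 or more lists were 73 (8.38%), against 5.13%, and 15 (1.72%) were in all 7 full-length lists of day 3, against 0.844%.

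**Figure D1:**
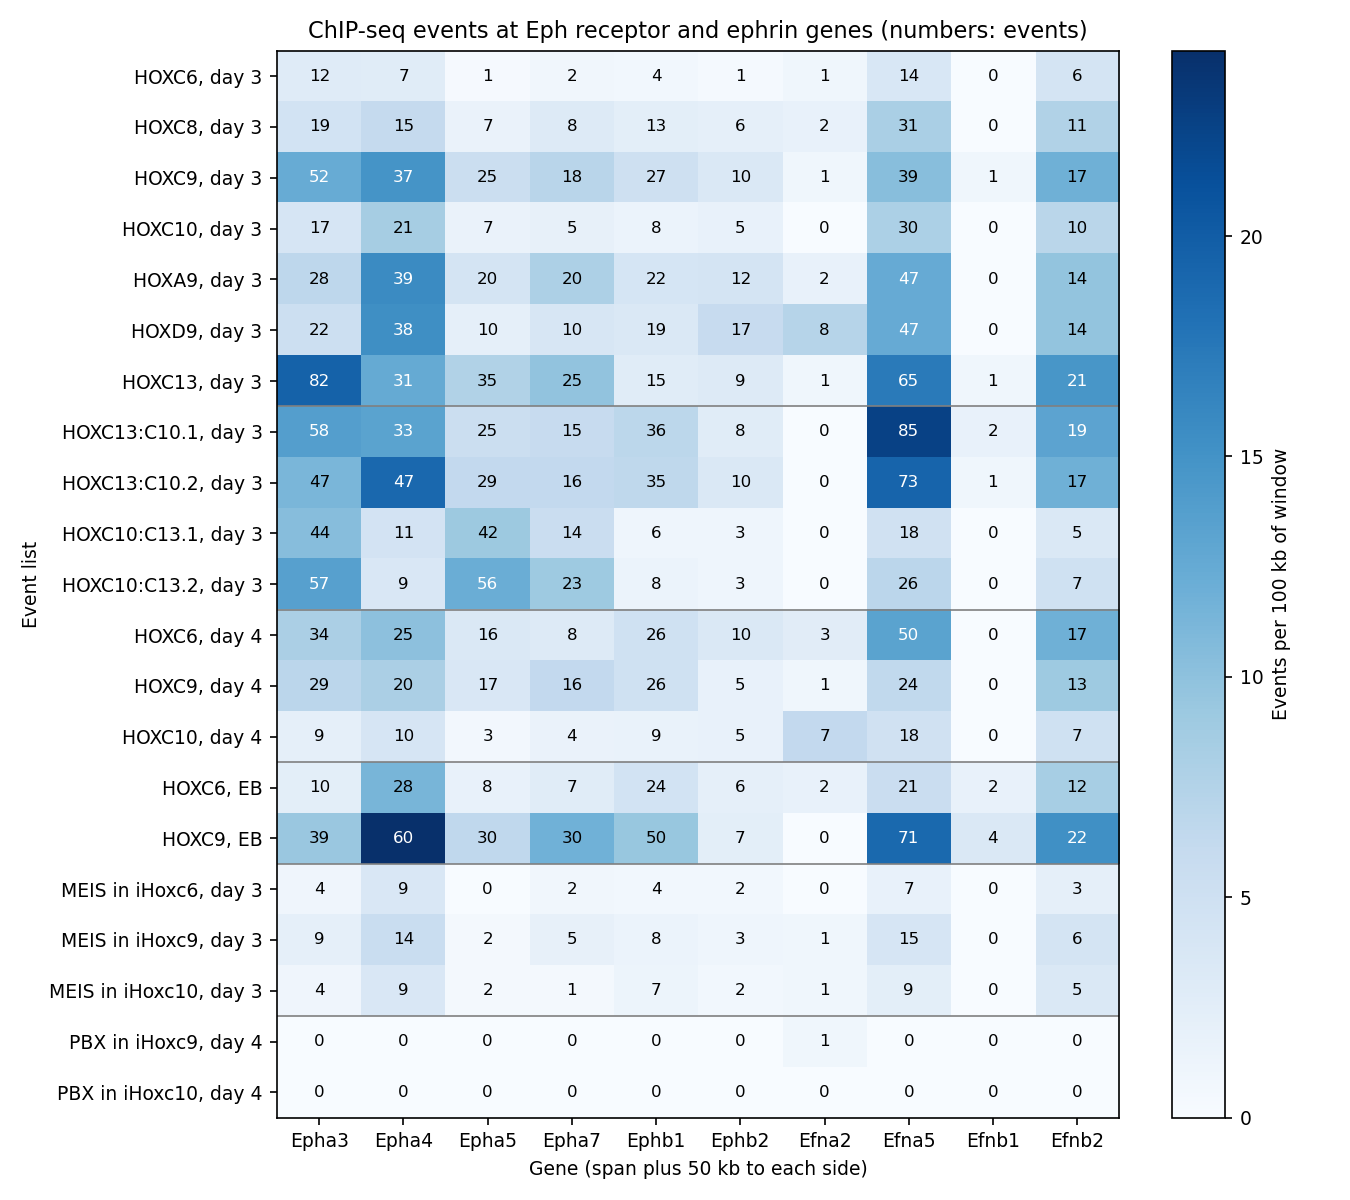
Number of binding events in the window of each gene (columns) for each event list (rows), with the colour giving events per 100 kb of window. Efna5 holds the most events in 10 of the 16 HOX lists, Epha3 in 5 and Epha4 in 1, whereas Efnb1 has at most 4 in any of them.

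The lists differ in length, so members were compared by their strongest events, the first 10000 of each list ranked by estimated ChIP reads. In the 7 full-length lists of day 3 the members held 224 such events. HOXC8, HOXC10, HOXA9 and HOXD9 each had a top event at 8 of the 10 members, against 22.1%, 23.1%, 25.3% and 28.0% of all protein-coding windows. HOXC6, HOXC9 and HOXC13 each had one at 7 members, against 25.7%, 19.5% and 26.1% of all windows. The share was higher at the members than over all genes, but their windows are also longer, with a median of 271 kb against 117 kb. Among the 2492 protein-coding genes of at least 100 kb, 56.9% to 63.9% had a top event, compared with 6 or 7 of the 7 long members. The median number of top events per long gene was 1 in every list, and over the 7 long members it was 2 for HOXC6 and HOXC8, 5 for HOXC9, 3 for HOXC10, HOXA9 and HOXD9, and 1 for HOXC13.

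**Figure D2:**
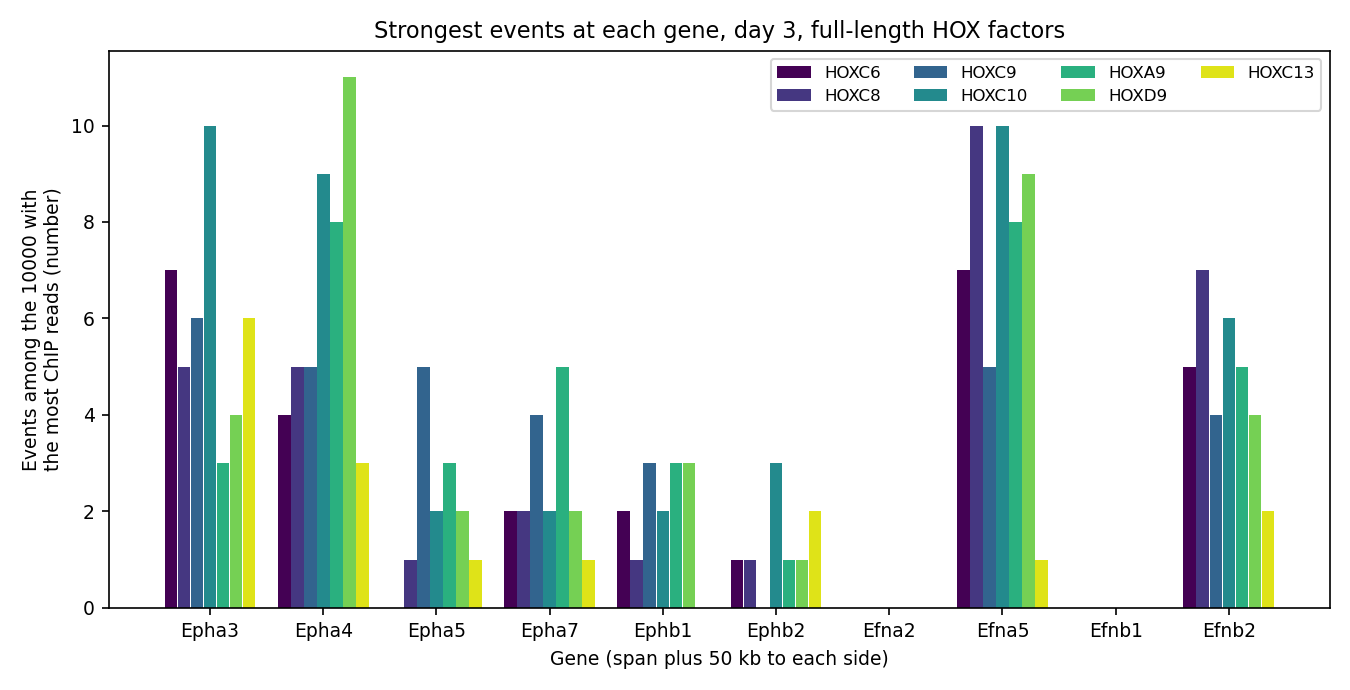
Number of events among the first 10000 of each full-length HOX list of day 3, for each of the 10 genes. Efna5, Epha4, Epha3 and Efnb2 hold most of the 224 top events, and Efna2 and Efnb1 hold none.

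The remaining lists gave similar counts of members. For the chimeras, a top event was present at 5 members for HOXC13:C10.1 (21.3% of all windows), 8 for HOXC13:C10.2 (21.4%), 6 for HOXC10:C13.1 (22.5%) and 5 for HOXC10:C13.2 (22.9%). At day 4 it was 7 for HOXC6 (22.2%), 7 for HOXC9 (19.3%) and 8 for HOXC10 (40.4%). In EBs it was 9 for HOXC6 (32.9%) and 7 for HOXC9 (29.1%). For MEIS it was 7 in iHoxc6.V5 (24.1%), 8 in iHoxc9.V5 (25.4%) and 7 in iHoxc10.V5 (31.2%). The PBX lists were short, so any event was counted. No PBX event lay at 9 of 10 members in iFlag.Hoxc9, against 83.1% of all windows, and at 10 of 10 in iFlag.Hoxc10, against 86.9%. The single PBX event lay in the Efna2 window and ranked 994 of 1165.

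Epha4, the receptor of axons from the lateral part of the lateral motor column, had the site with the most lists of the family. This site, 19.8 kb inside the gene, was found in 19 lists, namely all 16 HOX lists and the 3 MEIS lists. Its day 3 rank was 934 of 56400 for HOXD9, 2124 of 26873 for HOXC10, 2496 of 44608 for HOXC8, 3161 of 17900 for HOXC6, 3302 of 62916 for HOXA9 and 6094 of 74085 for HOXC9. HOXC13 was the exception, at 90519 of 115879. The events formed a chain 467 bp wide in which the HOXC13 event and the HOXD9 event stood at opposite ends, and the merged site spans more than 1 event position. At day 4 the HOXC10 event ranked 257 of 22027 and the HOXC6 event 1238 of 69297, but the HOXC9 event 10355 of 44024. The ChIP reads behind these day 3 events were 458.5 for HOXD9, 259.7 for HOXC10, 408.6 for HOXC8, 151.3 for HOXC6, 364.2 for HOXA9 and 451.0 for HOXC9, against 55.7 for HOXC13, with 0.8 to 12.9 reads in the controls. All 4 chimeras had an event at the site, HOXC13:C10.2 at rank 633 and HOXC13:C10.1 at 2604, but HOXC10:C13.1 only at 20747 and HOXC10:C13.2 at 64755.

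The whole Epha4 window held 7 events of HOXC6, 15 of HOXC8, 21 of HOXC10, 31 of HOXC13, 37 of HOXC9, 38 of HOXD9 and 39 of HOXA9 at day 3. Among the first 10000 events of each list the order differed, with 11 for HOXD9, 9 for HOXC10, 8 for HOXA9, 5 each for HOXC8 and HOXC9, 4 for HOXC6 and 3 for HOXC13. For HOXC13, 3 of its 31 Epha4 events were thus top events, and 10000 of the 115879 events in its whole list are top events by definition.

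A different Epha4 site, 12.1 kb from the start, held the strongest MEIS binding of the family. Its MEIS events ranked 102 of 8219 in iHoxc6.V5, 210 of 22749 in iHoxc9.V5 and 115 of 12982 in iHoxc10.V5, with 375.5, 499.1 and 360.8 reads. HOXA9 ranked 773 and HOXD9 916 at that site, while HOXC13 ranked 26765. The site at 79.8 kb was stronger for the central factor HOXC8, at rank 189 with 1304.5 reads, than for HOXC10, at 14168 with 82.2 reads. HOXC9 ranked 975 there, HOXA9 1074 and HOXD9 1806. The other central factor, HOXC6, ranked 1778 of 17900 at day 3 with 210.5 reads. As a share of its list HOXC6 (9.93%) was behind HOXC9 (1.32%), HOXA9 (1.71%) and HOXD9 (3.20%) and ahead of HOXC10 (52.7%). At day 4 HOXC6 ranked 186 and HOXC10 576, the latter with 427.3 reads. In EBs the best HOXC9 event of Epha4 lay elsewhere, 74.4 kb from the start, at rank 50 of 128388 with 6405.4 reads against 1.3 in the control. The HOXC6 event of EBs at the same site ranked 228 of 44751, and among the other lists only HOXC13:C10.1 had an event there.

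Epha7 encodes a receptor whose limb expression is known to depend on group 13 Hox proteins. It carried the best-ranked full-length day 3 event of the family, the HOXC8 event at 68.3 kb, rank 24 with 2388.7 reads against 2.1 in the control. This site was found in 16 lists. At day 3 it also held 1316.2 reads of HOXC9 (rank 789), 541.9 of HOXA9 (1452), 321.9 of HOXD9 (2170), 269.1 of HOXC6 (1117) and 147.7 of HOXC10 (5903). It lacked an event of HOXC13. In EBs it ranked 10293 for HOXC6 and 25762 for HOXC9. HOXC6 ranked 88, HOXC9 132 and HOXC10 800 there at day 4, and HOXC13:C10.1 ranked 169. A neighbouring site at 68.7 kb was found in 17 lists and ranked 345 for HOXC9 and 538 for HOXC8 at day 3 and 259 for HOXC9 at day 4. HOXC13 was present at 68.7 kb at rank 53243. The best events of HOXC10:C13.1 and HOXC10:C13.2 lay instead at 94.8 kb, at ranks 465 and 554, and that site was otherwise found only for HOXC13.

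Epha3, an EphA receptor gene, had 82 events of HOXC13 at day 3 and 52 of HOXC9. HOXA9 had 28, HOXD9 22, HOXC8 19, HOXC10 17 and HOXC6 12. In this order the whole lists held 115879, 74085, 62916, 56400, 44608, 26873 and 17900 events. The order of the counts was thus that of list length. By top events the order was different, with 10 for HOXC10, 7 for HOXC6, 6 each for HOXC9 and HOXC13, 5 for HOXC8, 4 for HOXD9 and 3 for HOXA9. The site with the most lists (16) lay 307 kb from the start, where HOXC13:C10.2 ranked 439, HOXC10 1859, and HOXC10 at day 4 869. HOXC6 at day 3 had no event there. The best HOXC6 event at day 3 lay 342 kb from the start, beyond the 3′ end, at rank 534, and the day 4 event at that site ranked 852. HOXC13 ranked 677 at its best site, 367 kb from the start and also beyond the 3′ end, whereas both HOXC10:C13 chimeras were best at 2.05 kb, at ranks 530 and 654.

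**Figure D3:**
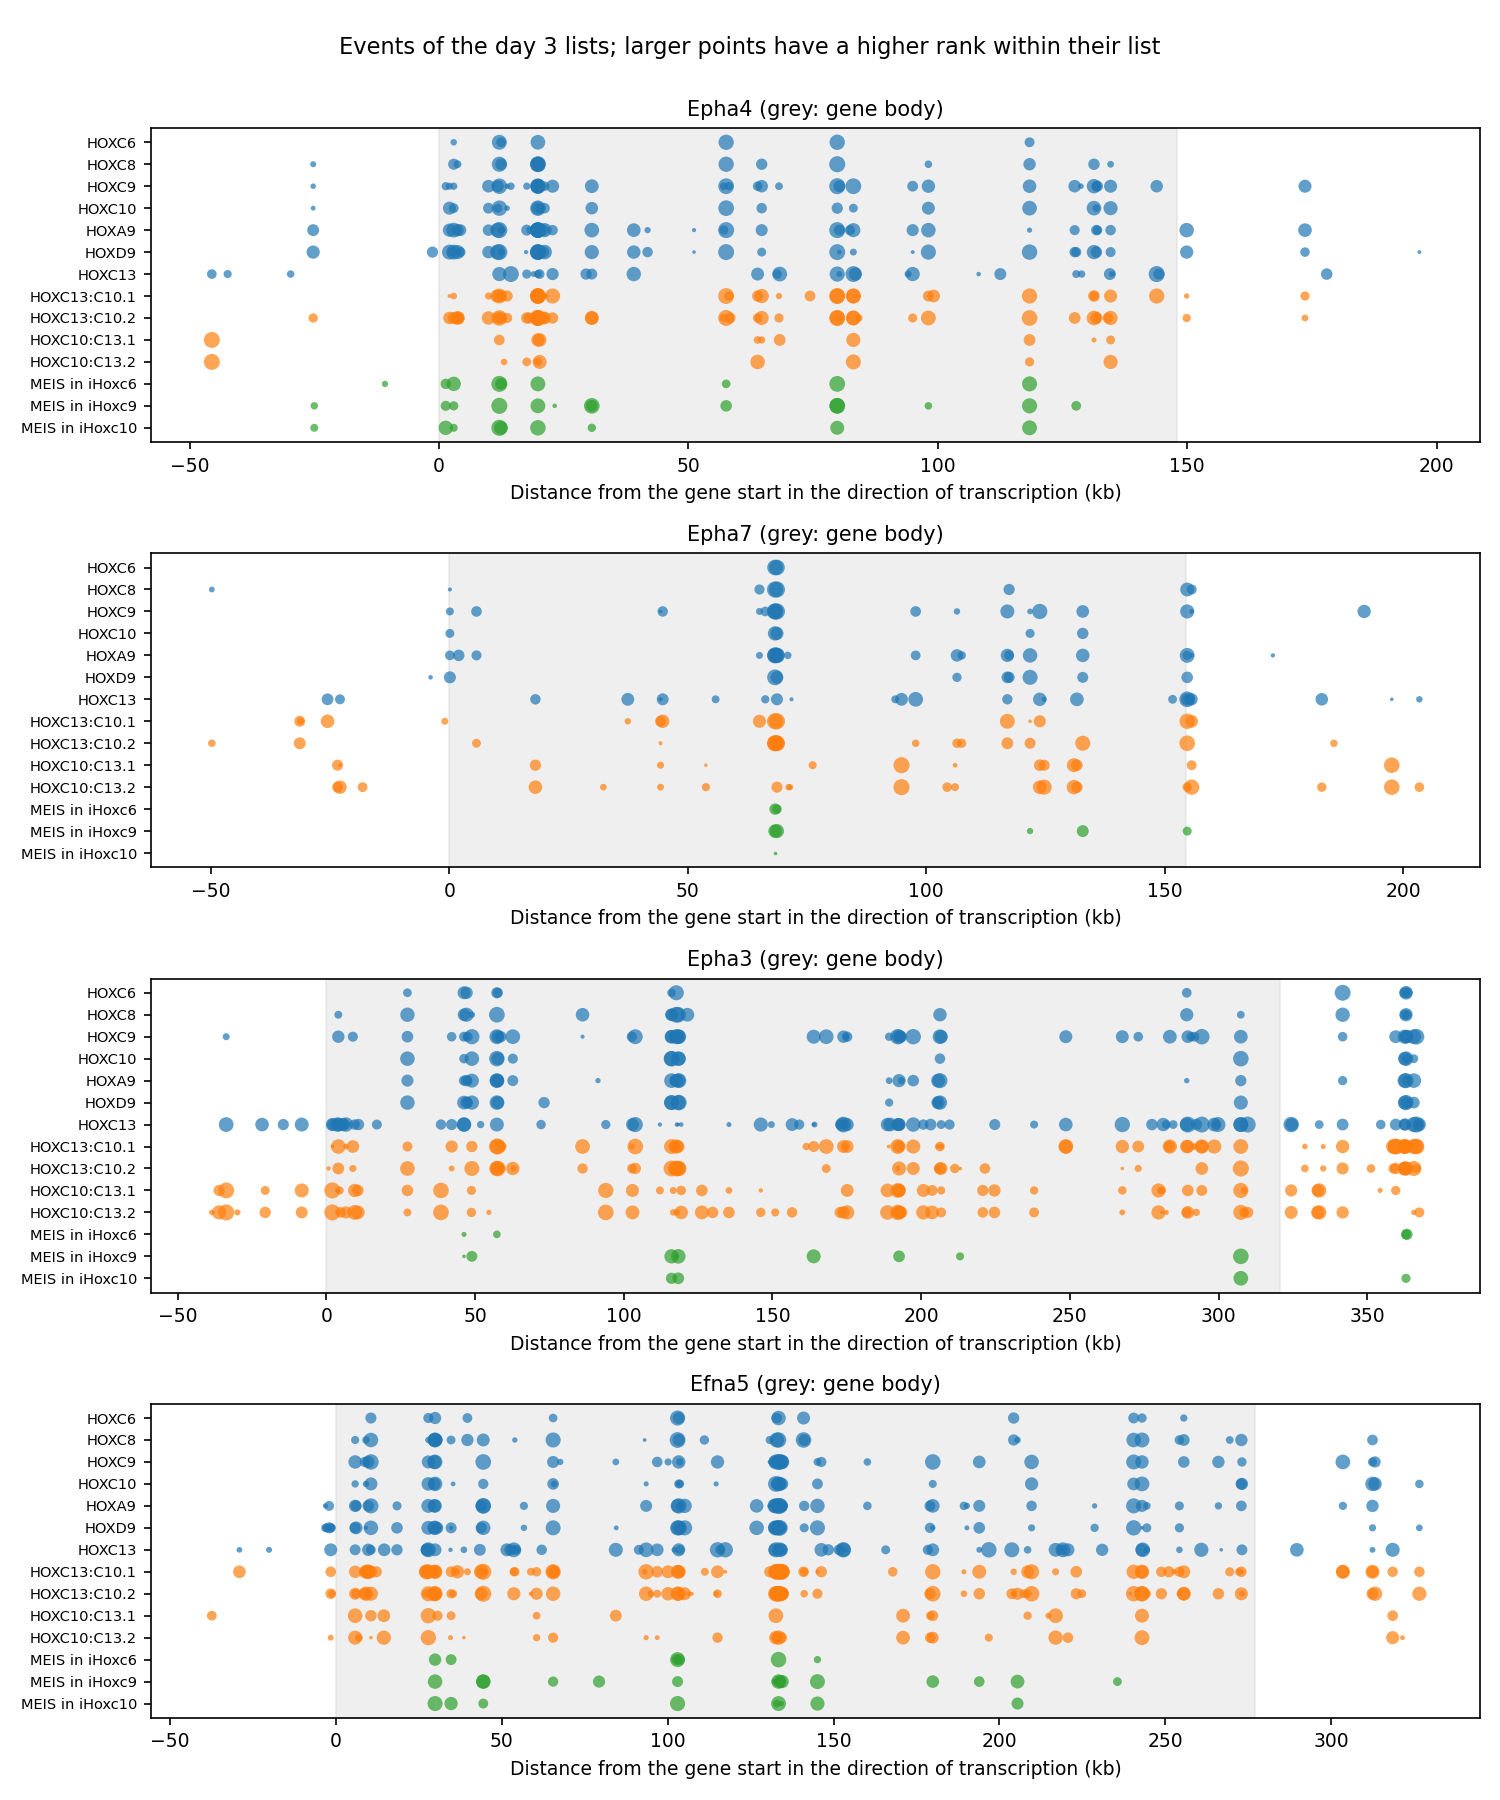
Positions of events along Epha4, Epha7, Epha3 and Efna5, as distance from the gene start, with 1 row per list. Full-length HOX lists are blue, chimeras orange and MEIS green, and the columns of marks in many rows are the shared sites named in the text.

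At Epha5, another EphA receptor gene, the lead site divided the day 3 factors. That site, 4.52 kb from the start, was found in 15 lists and in neither HOXC6 nor HOXC8 at day 3. HOXC10 at day 4 ranked 51 there with 937.5 reads, HOXC10 at day 3 1007, HOXC9 at day 4 1095 and HOXC9 at day 3 1996. HOXC6 had 1 event in the whole Epha5 window at day 3, at rank 13909, and HOXC8 had 7, of which 1 was a top event. The HOXC10:C13 lists had 42 and 56 events at Epha5, more than HOXC13 with 35 and HOXC10 with 7. The best event of both lay upstream at 35.0 kb, at ranks 2004 and 2625.

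Ephb1, the receptor of axons from the medial part of the lateral motor column, had its lead site at 114 kb, in 16 lists. HOXD9 ranked 1109 there, HOXA9 1226, HOXC10 2378, HOXC6 4752, HOXC9 6319 and HOXC8 7733 at day 3. Relative to list length the order differed. HOXA9 stood at 1.95% of its list, HOXD9 at 1.97%, HOXC9 at 8.53%, HOXC10 at 8.85%, HOXC8 at 17.3% and HOXC6 at 26.5%. HOXC13 and both HOXC10:C13 chimeras had no event at it. MEIS ranked 527 of 12982 in iHoxc10.V5, 1445 of 8219 in iHoxc6.V5 and 1740 of 22749 in iHoxc9.V5. Control reads at this site, 8.7 to 15.9 at day 3, were higher than the 0.8 to 5.1 of the Epha3 lead site. The Ephb2 lead site at 17.5 kb was weaker. It was found in 13 lists and ranked 8417 of 26873 for HOXC10 and 11876 of 62916 for HOXA9, and no MEIS event lay there. The EphB2 receptor is known to steer commissural and other axons. HOXC13 was stronger elsewhere in Ephb2, at rank 714, 124 kb from the start.

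Efna5, which encodes the ligand ephrin-A5, held the most top events at day 3 of any member, with 10 each for HOXC8 and HOXC10, 9 for HOXD9, 8 for HOXA9, 7 for HOXC6, 5 for HOXC9 and 1 for HOXC13. HOXC13 had 65 events in this window, of which 1 was a top event. By the definition of top events, most events of its whole list fall outside them too. The count therefore does not show that the other HOXC13 events were low in the list. The lead site at 133 kb was found in 17 lists. It ranked 613 for MEIS in iHoxc6.V5, 2249 for HOXA9 and 2567 for HOXC9, but 75109 for HOXC13. In EBs the best events of Efna5 were at 123 kb, a site found in both EB lists and in no other. HOXC6 ranked 22 of 44751 there with 5896.9 reads against 1.1 in the control, and HOXC9 ranked 290 with 3825.6 reads. Efna2, a second ephrin-A gene, had no top event in the day 3 lists and at most 8 events, in HOXD9. Its lead site, 29.7 kb from the start and downstream of the gene, ranked 31803 for HOXD9.

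Efnb2, which encodes the ligand ephrin-B2, carried the second most shared site of the family. This site, 7.11 kb from the start, was found in 18 lists. At day 3 HOXA9 ranked 217, HOXD9 310, HOXC8 866, HOXC9 1198, HOXC10 2135, HOXC6 4694 and HOXC13 14768. At day 4 HOXC6 ranked 187, HOXC10 251 and HOXC9 1291. MEIS ranked 244, 455 and 658 in iHoxc6.V5, iHoxc9.V5 and iHoxc10.V5. The day 3 reads were 1159.4 for HOXA9, 1098.3 for HOXC9, 724.6 for HOXC8, 676.3 for HOXD9, 258.8 for HOXC10, 253.6 for HOXC13 and 114.8 for HOXC6, against 2.3 to 9.9 in the controls. The HOXC6 list grew from 17900 events at day 3 to 69297 at day 4. Compared with the day 4 ranks, the EB ranks were low, 13531 for HOXC6 and 24273 for HOXC9. Efnb1, on the X chromosome, had 5 sites, all downstream of the gene. The one in the most lists (4) ranked 21750 for HOXC13:C10.1. The best event of Efnb1 was that of HOXC6 in EBs, 16.6 kb from the start, at rank 3901 of 44751 with 383.3 reads against 1.0 in the control.

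**Figure D4:**
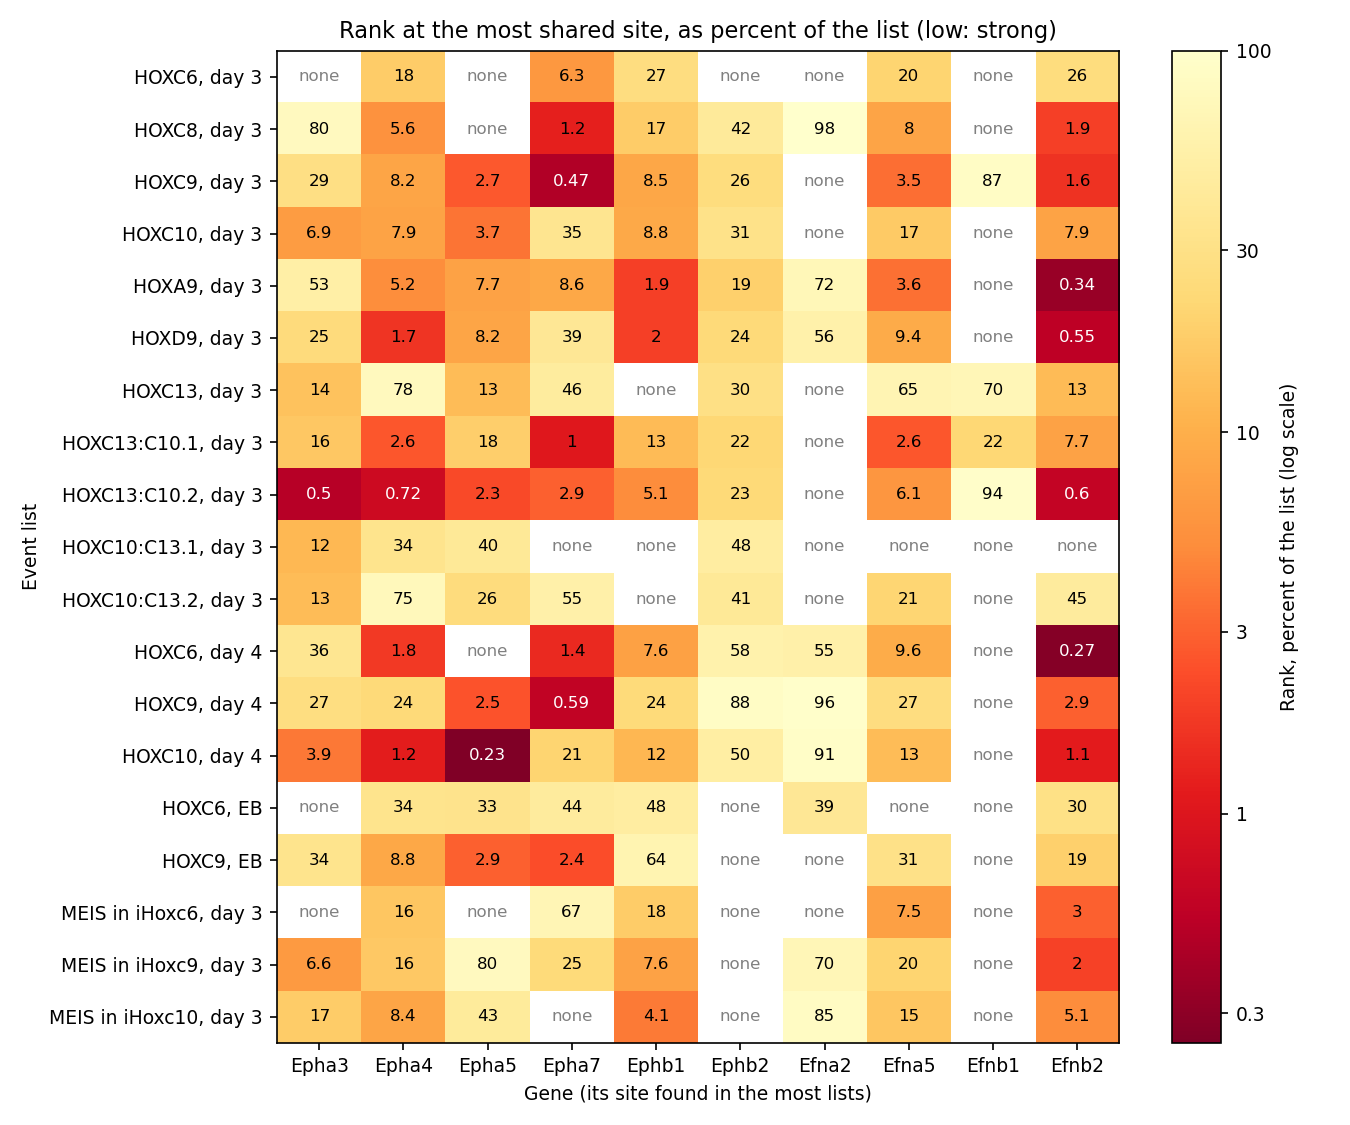
Rank of the event at the most shared site of each gene in each list, on a log scale. HOXC13 is absent at Ephb1 and Efna2 and lies between 12.7% and 78.1% of its list at the other sites. At Efna2 the day 3 lists of HOXC6, HOXC9 and HOXC10 have no event either. The EB lists rank the Efnb2 site lower than the day 4 lists do.

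HOXC13 had no event at the most shared sites of Ephb1 and Efna2 and ranked past 10000 at those of the other members. HOXC6, HOXC9 and HOXC10 of day 3 also had no event at the Efna2 site. At the Ephb2 site HOXC8, HOXC9, HOXA9 and HOXD9 ranked past 10000 too, and HOXC6 had no event. As a share of its list HOXC13 (29.5%) was ahead there of HOXC8 (42.3%) and HOXC10 (31.3%) and behind HOXC9, HOXA9 and HOXD9. At the Efnb1 site HOXC13 (70.0%) was ahead of HOXC9 (87.2%), and the other full-length factors had no event. At Epha3 the HOXC8, HOXC9, HOXA9 and HOXD9 events also ranked past 10000. By share of list HOXC13 (14.4%) was ahead there of HOXD9 (24.6%), HOXC9 (28.7%), HOXA9 (52.7%) and HOXC8 (79.5%) and behind HOXC10 (6.92%). At the Efnb2 site HOXC13 (12.7%) was ahead of HOXC6 (26.2%) and behind the other full-length factors. At Epha4, Epha5, Epha7 and Efna5 it was behind every other full-length factor with an event. Sites found by a single full-length factor at day 3 were mostly those of HOXC13. Of 500 sites in at least 1 of the 7 lists, HOXC13 alone held 171 of its 279 (61.3%, against 73.4% of its sites in the series). HOXC9 alone held 30 of 218 (13.8% against 20.7%), HOXD9 23 of 181 (12.7% against 15.6%), HOXC8 14 of 108 (against 18.4%) and HOXA9 15 of 195 (7.69% against 7.87%). HOXC10 alone held 3 of 101 (2.97% against 3.50%) and HOXC6 2 of 48 (4.17% against 4.50%). HOXC13 also has the longest list, at 115879 events. HOXC9, HOXC10, HOXA9 and HOXD9 shared 82 of the 500 sites (16.4%, against 9.34% in the series), of which 29 lacked HOXC6 and HOXC8 (35.4% against 26.6%). HOXC6 or HOXC8 and none of the posterior factors were at 19 sites (3.80% against 5.32%).

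HOXC9 and HOXC10 were compared as thoracic and lumbar factors. Of 103 HOXC10 events 90 (87.4%, 79.6 to 92.5) had a HOXC9 event within 100 bp, against 81.3% of all HOXC10 events. Of 227 HOXC9 events 92 (40.5%, 34.4 to 47.0) had a HOXC10 event, against 30.4%. Both shares count nearly the same pairs of events, so the gap between them follows the lengths of the lists. With both lists cut to 26873 events the shares were 57.3% and 59.8%, against 48.7% and 51.0% over all events. By gene, HOXC9 events lay near HOXC10 at 20 of 37 for Epha4, 21 of 39 for Efna5 and 10 of 17 for Efnb2, but at 7 of 27 for Ephb1, 7 of 25 for Epha5 and 16 of 52 for Epha3. HOXC6 and HOXC8 gave a similar picture, with 43 of 48 HOXC6 events (89.6%, 77.8 to 95.5) near HOXC8, against 90.2%, and 44 of 112 HOXC8 events (39.3%, 30.7 to 48.5) near HOXC6, against 37.0%. At equal length those shares were 64.6% and 68.1%, against 67.6% and 69.6% over all events.

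HOXA9 was near HOXD9 at 146 of 204 events (71.6%, 65.0 to 77.3), against 66.2% of all HOXA9 events, and near HOXC9 at 143 (70.1%, 63.5 to 76.0), against 67.4%. The difference was 1.47 points, its interval included 0, and at equal length the shares were 76.7% and 64.4%, against 69.8% and 61.5% over all events.

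**Figure D5:**
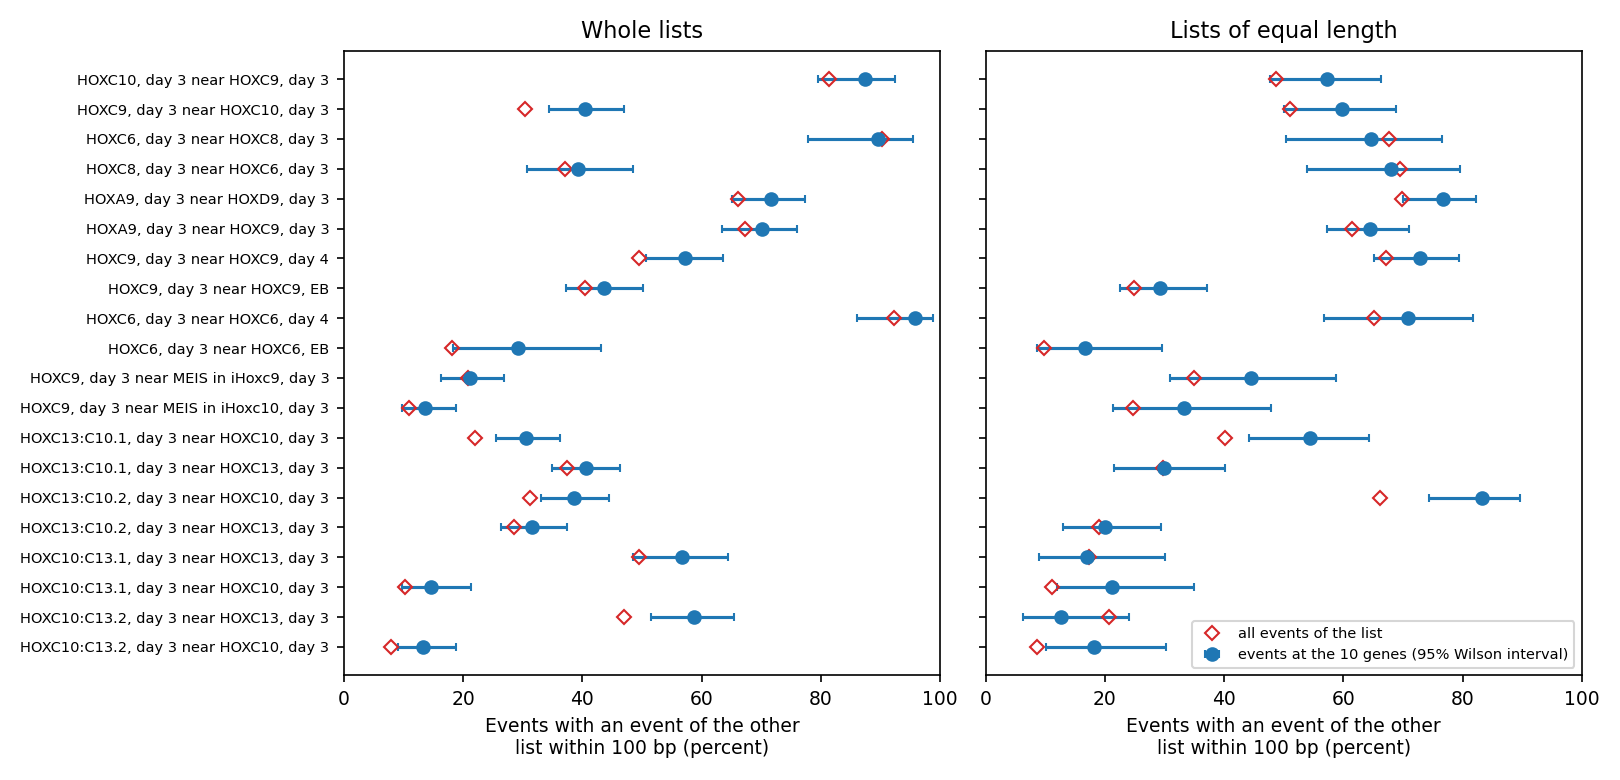
Share of member events with an event of a compared list within 100 bp, with 95% Wilson intervals, beside the share over all events of the list. The member shares lie above those of the whole lists in most comparisons. At equal length HOXC13:C10.2 near HOXC10 stands furthest above (83.3% against 66.2%). HOXC10:C13.2 near HOXC13 lies below (12.7%, 6.30 to 24.0, against 20.8%). By smaller margins HOXC6 near HOXC8, HOXC8 near HOXC6 and HOXC10:C13.1 near HOXC13 lie below as well.

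HOXC6 and HOXC9 events of day 3 recurred more at day 4 than in EBs with the lists as deposited. Of 48 HOXC6 events at day 3, 46 (95.8%, 86.0 to 98.8) had a HOXC6 event at day 4, against 92.4% of all, and 14 (29.2%, 18.2 to 43.2) had one in EBs, against 18.1%. The difference was 66.7 points (49.6 to 78.0), and at equal length the shares were 70.8% and 16.7%, against 65.2% and 9.76% over all events. HOXC9 was retained at 130 of 227 events (57.3%, 50.8 to 63.5) at day 4, against 49.4%, and at 99 (43.6%, 37.3 to 50.1) in EBs, against 40.4%. The difference was 13.7 points (4.46 to 22.5), and at equal length the shares were 72.8% and 29.3%, against 67.1% and 25.0% over all events. With events at q under 1e-06 the HOXC9 difference was 4.30 points, with an interval (-5.79 to 14.3) that included 0. By gene, HOXC9 events were found again at day 4 at 14 of 18 for Epha7, 21 of 27 for Ephb1 and 12 of 17 for Efnb2, and at 19 of 39 for Efna5 and 19 of 37 for Epha4. EB lists alone held 161 sites of the family (18.5%, against 21.5% of the series' sites).

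The chimeras showed different shares with each parent factor. HOXC10:C13.1 was near HOXC13 at 81 of 143 events (56.6%, 48.5 to 64.5), against 49.5% of all its events, and 122 (85.3%, 78.6 to 90.2) had no HOXC10 event, against 89.8%. HOXC10:C13.2 was near HOXC13 at 111 of 189 (58.7%, 51.6 to 65.5), against 47.0%, and 164 (86.8%, 81.2 to 90.9) had no HOXC10 event, against 92.1%. HOXC13 was ahead of HOXC10 by 42.0 points (31.4 to 51.2) and 45.5 points (36.5 to 53.4). With lists cut to 26873 events the member shares near HOXC13 were 17.0% (8 of 47) and 12.7% (7 of 55), and those near HOXC10 21.3% and 18.2% (10 events each). These differences of HOXC13 minus HOXC10, -4.26 points (-20.1 to 11.8) and -5.45 points (-19.2 to 8.38), had intervals that included 0. Over all events at that length HOXC13 stayed ahead, with 17.3% against 11.1% and 20.8% against 8.56%. HOXC13:C10.1 was near HOXC10 at 86 of 281 events (30.6%, 25.5 to 36.2), against 21.9%, and near HOXC13 at 114 (40.6%, 35.0 to 46.4), against 37.5%. HOXC13:C10.2 was near HOXC10 at 106 of 275 (38.5%, 33.0 to 44.4), against 31.3%, and near HOXC13 at 87 (31.6%, 26.4 to 37.4), against 28.5%. The differences of HOXC10 minus HOXC13 were -9.96 points (-17.7 to -2.05) and 6.91 points (-1.06 to 14.8). With lists cut to one length, the shares with HOXC10 were 54.4% and 83.3%, and those with HOXC13 30.0% and 20.0%. Over all events they were 40.2% and 66.2% with HOXC10, and 29.8% and 19.1% with HOXC13.

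The 2 chimeras of closest list length, HOXC10:C13.2 with 86293 and HOXC13:C10.2 with 87315 events, differed gene by gene. Epha5 had 56 events of the former and 29 of the latter, and Epha3 57 and 47. At Epha4 the counts were 9 and 47, at Efna5 26 and 73, at Ephb1 8 and 35, and at Efnb2 7 and 17. The HOXC10:C13 chimeras had 211 sites in all, of which 121 were shared with HOXC13 (57.3%, against 45.8% in the series) and 72 were in no other list (34.1% against 46.2%), 32 of these at Epha5 and 20 at Epha3.

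MEIS sites of the family numbered 74, of which 17 were in all 3 lists (23.0%, against 19.7% of MEIS sites in the series) and 8 had no HOX event (10.8% against 11.8%). MEIS events lay near the factor expressed in the same line at 20 of 31 (64.5%, 46.9 to 78.9) in iHoxc6.V5, 49 of 63 (77.8%, 66.1 to 86.3) in iHoxc9.V5 and 27 of 40 (67.5%, 52.0 to 79.9) in iHoxc10.V5. Over all MEIS events those shares were 53.8%, 66.8% and 53.9%. The HOXC6, HOXC9 and HOXC10 lists of these shares come from Flag-tagged lines, apart from 1 HOXC10 library. HOXC9 events lay near MEIS of iHoxc9.V5 at 48 of 227 (21.1%, 16.3 to 26.9), against 20.8% of all, and near MEIS of iHoxc10.V5 at 31 (13.7%, 9.79 to 18.7), against 11.0%. The difference was 7.49 points (0.497 to 14.4), and at equal length the shares were 44.4% and 33.3% of 45 events, a difference whose interval (-8.77 to 29.8) included 0. Over all HOXC9 events at that length the shares were 35.0% and 24.6%. MEIS and HOXC9 met at 10 of 37 HOXC9 events of Epha4, 9 of 39 of Efna5 and 6 of 17 of Efnb2, against 2 of 25 of Epha5.

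TTTAT lay within 50 bp of 139 of 227 HOXC9 events (61.2%, 54.8 to 67.3), against 62.4% of all HOXC9 events, and of 16 of 48 HOXC6 events (33.3%, 21.7 to 47.5), against 38.4%. The difference was 27.9 points (12.4 to 41.1), and it was 9.54 points (-3.54 to 24.6) with the motif sought within 100 bp. TTTAC lay near 126 of 285 HOXC13 events (44.2%, 38.6 to 50.0), against 42.8%, and near 71 of 227 HOXC9 events (31.3%, 25.6 to 37.6), against 27.7%, a difference of 12.9 points (4.47 to 21.1). More HOXC13 events held TTTAT than TTTAC, with TTTAT at 204 of 285 (71.6%, 66.1 to 76.5), against 78.8% of all HOXC13 events. For HOXC10 at day 3 TTTAT lay near 49 of 103 events (47.6%, 38.2 to 57.1), against 54.2%. The HOXC10:C13.1 and HOXC10:C13.2 events held TTTAT at 88.1% and 88.9%. Over all events of those 2 lists the shares were 89.2% and 90.0%.

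Other genes of the family and its signalling partners were listed by name. Of 12 other Eph and ephrin genes, 8 had a top event of HOXD9 at day 3 and 6 of HOXC13. HOXA9, HOXC10 and HOXC6 each had one at 4, and HOXC8 and HOXC9 at 2. Epha6, an EphA receptor gene with a window of 1052 kb, held 22 top events over the 7 lists, Epha10 11 and Epha8 8. Efna1, Efna3 and Efna4 share a locus and so share events. For all windows the shares with a top event were 19.5% to 28.0%, as given above. Of 12 partners, whose windows span 132 to 733 kb, 6 to 9 had a top event, against 56.9% to 63.9% of the genes of at least 100 kb. The partners Rhoa, Src, Nck1 and Ngef, with windows of 132 to 197 kb, are shorter than 100 kb, so the 2 sets are not alike. Over the 7 lists Grip1, an adaptor that binds ephrin-B, held 46 top events. Chn1, the gene of the EphA4 effector α2-chimaerin, held none. By counts of top events over the 16 HOX lists, Tox2 was among the genes most like Efna5 of 473 compared (cosine 0.966).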

How the data were processed

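The deposited lists hold binding events that the authors called per condition with MultiGPS on the pooled libraries of a group against a control library, after alignment to mm10 with Bowtie 1.0.1. The submitters' processing notes also name Picard 2.8.2 and edgeR 3.22.5. For each event the authors give an estimated count of ChIP reads, the control reads, a log2 fold over the scaled control, and the log2 of a q-value, and events passed q under 0.001. MultiGPS can share position information between conditions analysed together, which can raise agreement between lists. Columns comparing pairs of conditions (log2 fold changes and q-values) and the position tracks were not used.

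Windows were taken from GENCODE M21 gene spans with 50 kb added to each side. Events within 100 bp were merged or called shared, and events were ranked by estimated ChIP reads. Shares have Wilson intervals and differences Newcombe intervals, which treat the shares as unpaired although some rest on the same events; the counting code was tested on simulated lists with known answers. Work used Python 3.11.15, pandas 2.3.3, pysam 0.24.0 and samtools 1.23.1. Members and gene lists were chosen with earlier results of these data known. Named sites were those in the most lists or with a member's best rank. Alternatives were window width, merging and sharing distance, q, ranking, list length and motif spelling. Of 42 samples in 23 groups, 2 control samples had no list analysed here. Part of the list of genes most like Efna5 is not reported here.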

Additional observations from a re-analysis of the deposited data

How the results depend on the processing

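Of 109 alternatives over 14 results, 84 kept the value near that reported, 15 moved it and 10 gave the opposite sign. For 8 of these 10 the interval included 0, the exceptions being both of HOXC13:C10.1. Members held 224 top events, 108 with the first 5000 events of each list and 449 with the first 20000. With lists of equal length the difference of HOXC10 near HOXC9 minus the converse became -2.52 points (-15.7 to 10.8), HOXC6 near HOXC8 minus the converse -3.50 (-21.7 to 15.1), HOXA9 near HOXD9 minus near HOXC9 12.2, HOXC9 at day 4 minus EBs 43.5, HOXC13:C10.1 near HOXC10 minus near HOXC13 24.4, HOXC13:C10.2 63.3, HOXC10:C13.1 near HOXC13 minus near HOXC10 -4.26 (-20.1 to 11.8) and HOXC10:C13.2 -5.45 (-19.2 to 8.38). The first 2 of these differences follow the lengths of the lists. With the first 10000 events of each list the same differences were -15.9, 6.25, 11.1, 53.1, 36.7, 70.0, -14.3 and -7.14, HOXC6 at day 4 minus EBs was 78.6, HOXC9 near MEIS of iHoxc9.V5 minus iHoxc10.V5 18.8 (-4.39 to 39.4) and TTTAC at HOXC13 minus HOXC9 25.0 (-3.85 to 49.6). At q under 1e-06 HOXA9 near HOXD9 minus near HOXC9 was -8.61 (-18.5 to 1.47) and HOXC9 at day 4 minus EBs 4.30 (-5.79 to 14.3). TTTAT at HOXC9 minus HOXC6 was 9.54 (-3.54 to 24.6) within 100 bp, and TTTACG at HOXC13 minus HOXC9 was 3.32 (-0.405 to 6.99). By construction, cutting removes the weaker events of every list that is longer than the cut. Other causes were not tested.

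Leaving out each replicate was not run, because no list gives event values per replicate. No paired analysis was possible because the lists pool their libraries and the results come from no test. The depth of the lists differs, so a missing event says only that none passed the threshold in that list.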
